A study of Mus musculus with 2 samples.

Results

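Transcripts of 8 genes that mark exit from naive pluripotency were examined in E14 mouse embryonic stem cells. They are the formative and primed epiblast factors Otx2, Pou3f1, Fgf5, Zic2 and Zic5, and the primitive streak factors T, Eomes and Mixl1. All 8 symbols were found among the 50508 genes of the deposited table. E14 is a line of the 129/Ola strain, kept here between passages 15 and 18 on gelatin. The medium held 15% serum, and LIF (leukemia inhibitory factor) at 1000 U/ml, which holds mouse stem cells undifferentiated through STAT3. One culture group received a scramble siRNA and the other an siRNA against Mettl8, a methyltransferase gene that the study names as a STAT3 target, and RNA was taken after 72 h. Each group is 1 library, so the values have no replicate error and no test between the groups was possible.

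The naive state resembles the inner cells of the blastocyst before implantation. After implantation the epiblast passes through a formative state, in which OTX2 redirects OCT4 to new enhancers, and then a primed state, from which the primitive streak arises where NODAL, WNT and BMP signals meet. T (Brachyury), EOMES and MIXL1 are transcription factors of that streak and of the mesoderm and endoderm that leave it. In cultures with serum and LIF, most cells are naive, and cells that drift towards the later states are usually a minority.

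Levels are in FPKM (fragments per kilobase of gene length per unit of sequencing depth), as deposited. The product of FPKM and gene length moves in steps of 1 read, from which the reads of each gene were rebuilt. The denominators are 28462381 reads (library labelled scramble siRNA) and 27818506 reads (library labelled Mettl8 siRNA). Intervals at 95% were computed from these reads (exact Poisson for a level, Clopper-Pearson for a ratio) and cover counting error only. The targeted gene goes against the label: the library labelled scramble siRNA had Mettl8 at 0.67 FPKM (107 reads), against 100.3 FPKM (15615 reads) where the label is Mettl8 siRNA. Every direction below is therefore that of the library so labelled, and not of a loss of Mettl8.

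In both libraries the 8 genes formed 3 tiers of level. Otx2, Zic2 and Zic5 were measured at 2 to 5 FPKM, Pou3f1 and Eomes lay below 1 FPKM with 70 to 100 reads in a library, and Mixl1, T and Fgf5 were near zero with 0 to 14 reads. In the library labelled Mettl8 siRNA, 6 of the 8 were lower and 2 higher; the 5 epiblast factors were all lower, though Zic2 was 0.02 higher on the log2 scale once each library was rescaled to the same FPKM sum, and T and Eomes were the higher ones. Among protein-coding genes with at least 10 reads, 44.5% were lower, against 5 of the 7 genes described here with that many reads (Fgf5 has fewer). A bulk library cannot tell fewer cells of a type from less RNA per cell.

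**Figure D1:**
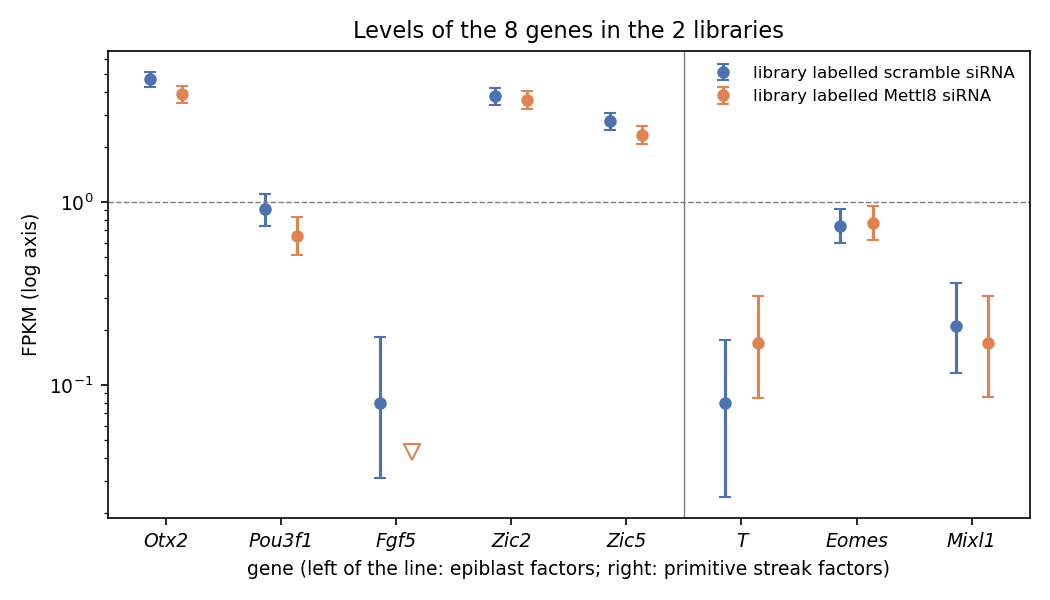
FPKM (log axis) of each gene in the library labelled scramble siRNA (blue) and the library labelled Mettl8 siRNA (orange), with exact Poisson intervals at 95%. The open triangle is a fixed limit of 3 reads (0.0431 FPKM), drawn without an interval where Fgf5 had 0 reads, and the dashed line is 1 FPKM. Otx2, Zic2 and Zic5 lie above 1 FPKM in both libraries, the other 5 genes below it.

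Otx2, the homeobox gene of the formative state, had the highest level of the 8. The library labelled scramble siRNA had 4.66 FPKM (4.24 to 5.12) from 451 reads, and the library labelled Mettl8 siRNA 3.86 FPKM (3.48 to 4.28) from 365 reads. The 2 intervals overlap slightly, and the ratio of 0.828 has a counting interval of 0.719 to 0.953, which leaves out 1; with each library rescaled to the same FPKM sum it runs from 0.768 to 1.02 and holds 1. On the log2(FPKM + 1) scale, which understates the change of low genes, the difference was -0.22. Otx2 ranked 5407 and 6102 among the 21490 protein-coding genes of the table. Pou5f1, the gene of OCT4, was 33.3 times as high as Otx2 in the first library and 42.4 times in the second.

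Otx2 is on chromosome 14, minus strand, from 48657677 to 48673819 in GRCm38, with 11 annotated transcripts in GENCODE M21. Its deposited length of 3397 bases is shorter than the 4221 bases of its exons in that release, so the authors' annotation of this gene was another; for the other 7 genes the lengths are equal. The antisense long non-coding gene Otx2os1 shares 154 exon bases with Otx2. It was 0.18 FPKM (6 reads) and 0.12 FPKM (4 reads). The sources used here do not give the strand setting of the counting, so reads from the shared bases cannot be assigned to a strand.

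Pou3f1, a POU-domain factor of the formative epiblast also known as OCT6, was 0.91 FPKM (0.743 to 1.11, 100 reads) in the library labelled scramble siRNA. The library labelled Mettl8 siRNA had 0.65 FPKM (0.510 to 0.826, 70 reads). The level intervals overlap. Its ratio of 0.716 has a counting interval of 0.520 to 0.982. Pou3f1 is a gene with 1 exon on chromosome 4 (plus strand, 124656807 to 124660655), and the annotated antisense gene Gm2164 covers 330 of its exon bases.

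The zinc-finger genes Zic2 and Zic5 stand next to each other on chromosome 14, on opposite strands, with 9757 bases between their starts. Zic2 works at enhancers in stem cells and epiblast. In the same order of libraries it was 3.77 FPKM (3.36 to 4.21, 309 reads) and 3.61 FPKM (3.20 to 4.05, 289 reads), a ratio of 0.957 with a counting interval of 0.812 to 1.13 that holds 1. Zic5 was 2.75 FPKM (2.48 to 3.04, 383 reads) and 2.33 FPKM (2.08 to 2.60, 317 reads), a ratio of 0.847 (0.727 to 0.985). Within each library Zic2 was thus the higher of the pair per length, by 1.37 times under the scramble siRNA label and 1.55 times under the Mettl8 siRNA label.

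Fgf5, the secreted growth factor used as a classical marker of primed epiblast, was nearly absent. The library labelled scramble siRNA had 0.08 FPKM from 6 reads (0.0309 to 0.183). The library labelled Mettl8 siRNA lists it at 0 from 0 reads, with an exact Poisson interval that reaches 0.0530 FPKM. A fixed limit of 3 reads, tighter than that interval, stands at 0.0431 FPKM. Set against the limit of 3 reads, the level was at least 1.95-fold lower in the library labelled Mettl8 siRNA, a bound that takes the 6 reads at face value. The counting interval of the ratio, which takes in the error of both counts, runs from 0 to 0.869 and allows a smaller difference.

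The point values of the primitive streak factors did not share a direction, and each of their ratios has a counting interval that holds 1. Eomes, a T-box factor of the streak that also acts in trophoblast, was the most abundant of them at 0.74 FPKM (0.597 to 0.917, 88 reads) and 0.77 FPKM (0.618 to 0.948, 89 reads). Its ratio was 1.03 (0.762 to 1.41), and differences smaller than this interval were not detectable at this depth. T, the founding T-box gene, was 0.08 FPKM (0.0246 to 0.177, 5 reads) and 0.17 FPKM (0.0853 to 0.306, 11 reads). The ratio of 2.25 rests on 16 reads in all, and its counting interval of 0.721 to 8.26 holds 1. Mixl1, a paired-like homeobox gene of mesendoderm, was 0.21 FPKM (0.117 to 0.360, 14 reads) and 0.17 FPKM (0.0860 to 0.308, 11 reads), with a ratio of 0.804 (0.330 to 1.91).

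The order of the levels was Otx2, Zic2, Zic5, Pou3f1, Eomes, Mixl1 and then Fgf5 and T, which had the same FPKM, in the library labelled scramble siRNA. Neighbours whose counting intervals overlap there are Pou3f1 and Eomes, Mixl1 and Fgf5, and Fgf5 and T. In the library labelled Mettl8 siRNA, Eomes stood above Pou3f1, T was level with Mixl1, and Fgf5 was last. Intervals that overlap there are those of Otx2 and Zic2, Eomes and Pou3f1, and T and Mixl1.

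The upstream sequence of 5 of the 8 genes is held by the RefSeq promoter table (GRCm38.p6, 250 bases before to 50 after each start), with 4 starts for Otx2 and 1 each for Fgf5, Zic5, T and Eomes. Shown are a start of Otx2, the gene with the highest level, picked after the matches were seen because it holds the most of them, and those of T and Fgf5, which were near zero. The table of levels sums all starts, so which Otx2 start was used was not measured. Capitals mark every match, on either strand, to TATAAA (the TATA element), CCAAT (the CCAAT element), GGATTA (a site type of OTX factors), ATGCAAAT (the octamer of POU factors), AGGTGTGA (a T-box half-site), CTTTGAT (a TCF/LEF site type) and TTCNNNGAA (a STAT site type).
Otx2 (chr14:48665060-48665359, minus strand): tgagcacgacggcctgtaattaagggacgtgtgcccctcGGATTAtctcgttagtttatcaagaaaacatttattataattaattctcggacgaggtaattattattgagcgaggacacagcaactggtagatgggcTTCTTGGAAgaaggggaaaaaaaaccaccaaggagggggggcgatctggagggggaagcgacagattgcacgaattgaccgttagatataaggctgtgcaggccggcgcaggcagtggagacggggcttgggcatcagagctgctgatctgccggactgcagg
T (chr17:8434173-8434472, plus strand): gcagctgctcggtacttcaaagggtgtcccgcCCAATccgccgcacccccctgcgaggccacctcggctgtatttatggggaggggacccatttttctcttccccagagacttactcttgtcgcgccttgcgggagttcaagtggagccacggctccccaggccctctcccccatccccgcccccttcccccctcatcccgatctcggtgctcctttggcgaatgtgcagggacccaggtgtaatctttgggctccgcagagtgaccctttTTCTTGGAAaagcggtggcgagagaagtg
Fgf5 (chr5:98253934-98254233, plus strand): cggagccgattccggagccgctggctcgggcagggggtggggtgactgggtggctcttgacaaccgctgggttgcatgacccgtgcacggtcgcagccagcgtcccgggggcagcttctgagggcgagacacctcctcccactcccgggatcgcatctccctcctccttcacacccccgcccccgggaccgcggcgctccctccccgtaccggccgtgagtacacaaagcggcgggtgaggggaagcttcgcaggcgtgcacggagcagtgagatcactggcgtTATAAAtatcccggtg

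The windows of Otx2 and T each hold 1 match to TTCNNNGAA, with the same letters, at position 138 for Otx2 and 272 for T, where position 251 is the start of transcription. Of all 32851 windows in the table, 8.30% hold such a match. The Otx2 window also holds GGATTA, found in 7.06% of windows; of the other 3 Otx2 starts, 1 holds only TATAAA, 1 only CCAAT and 1 no match, so TTCNNNGAA and GGATTA are at 1 of 4 starts. The T window holds 1 CCAAT, found in 37.4%. The Fgf5 window has TATAAA only after its start, at position 285, and 13.6% of windows hold these letters. Fgf5 has 29 CpG pairs in its 300 bases, a number reached by 12.9% of windows, against 17 for T, 16 for this Otx2 start and a median of 7 over all windows. The Eomes window holds 2 CCAAT matches, and no match to any of the 7 motifs was found in that of Zic5. These matches are descriptions of the letters, and binding was not measured.

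Levels of the pluripotency genes give the setting. The 14 naive state factors of the list used had medians of 33.5 FPKM (scramble siRNA label) and 33.8 FPKM (Mettl8 siRNA label), and the 4 core factors had medians of 72.6 and 70.2 FPKM. Gene by gene, 10 of the 14 naive factors were lower under the Mettl8 siRNA label (median difference -0.072), but 4 were lower and 10 higher at the same FPKM sum (0.019). At that sum the median over all genes with a mean of at least 1 FPKM was 0.089. Of the core factors, 3 of 4 were higher in the deposited values (0.092). Among all 13243 genes with a mean of at least 1 FPKM, 7166 were higher and 5959 lower in the deposited values. Nanog was 175 and 173 FPKM, and Zfp42 (REX1), a gene that is shut off as cells leave the naive state, was 104 and 98.0 FPKM. Zfp42 was 22.3 and 25.4 times as high as Otx2. The embryonic stem cell label of the samples is thus borne out by the defining markers, with 6 of 6 above 48 FPKM.

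Companion genes of the formative and primed state had median levels of 2.83 FPKM (scramble siRNA label) and 3.09 FPKM (Mettl8 siRNA label) and went both ways. Of the 24 in the list, 18 had a mean of at least 1 FPKM, of which the library labelled Mettl8 siRNA had 11 higher and 7 lower. Their median difference was 0.036 on the log2(FPKM + 1) scale against 0.013 over all 13243 genes kept by the same limit. Of all these kept genes, 7166 were higher and 5959 lower. With each library rescaled to the same FPKM sum, which moves all genes up together, 16 of the 18 companions were higher and 2 lower. Their median difference was then 0.126, against 0.089 over all kept genes. Tdgf1, the NODAL co-receptor gene, was 125 and 121 FPKM, and Nodal, the ligand, 19.96 and 19.05 FPKM. The ETS factor genes Etv5 (41.2 and 42.0 FPKM) and Etv4 (16.1 and 17.6 FPKM), which respond to FGF signals, were close between libraries. Among these 18 genes, Utf1, a chromatin-bound pluripotency factor, had the most negative difference at -0.23 (43.5 and 36.9 FPKM), next to Grhl2, an epithelial factor, at -0.14 (2.84 and 2.48 FPKM). The most positive differences among the 18 were those of Foxd3, a forkhead gene needed in epiblast, at 0.19 (4.28 and 5.03 FPKM), and, both at 0.16, Sall2 (1.15 and 1.40 FPKM) and Pim2 (2.70 and 3.13 FPKM). Tcf15, a bHLH gene linked to priming, was 22.3 and 21.7 FPKM.

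Companion genes of the streak were mostly as low as T and Mixl1. Of 26, 21 had a mean below 1 FPKM, among them Gsc, Mesp1, Wnt3 and Evx1. None of these 21 exceeded 0.86 FPKM in either library. Of the 21, 11 were higher, 7 lower and 3 equal. Directions were not counted over all genes as low, so nothing is read from these counts. Of the 5 others, 2 were higher and 3 lower (median -0.048), or 4 and 1 after that rescaling. Their median was then 0.038, against 0.089 over all kept genes. They include genes of the NODAL pathway, which also runs in undifferentiated stem cells: Lefty2, an inhibitor of NODAL, was 14.4 and 13.8 FPKM, and Foxh1, the nuclear partner of its SMADs, was 11.7 and 11.3 FPKM. The peptide hormone gene Apela was 15.4 and 17.6 FPKM, Bmp4 5.26 and 6.27 FPKM, and the homeobox gene Hhex 1.58 and 1.39 FPKM. Bmp4, with a difference of 0.22, is a signal that induces the streak in the embryo.

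**Figure D2:**
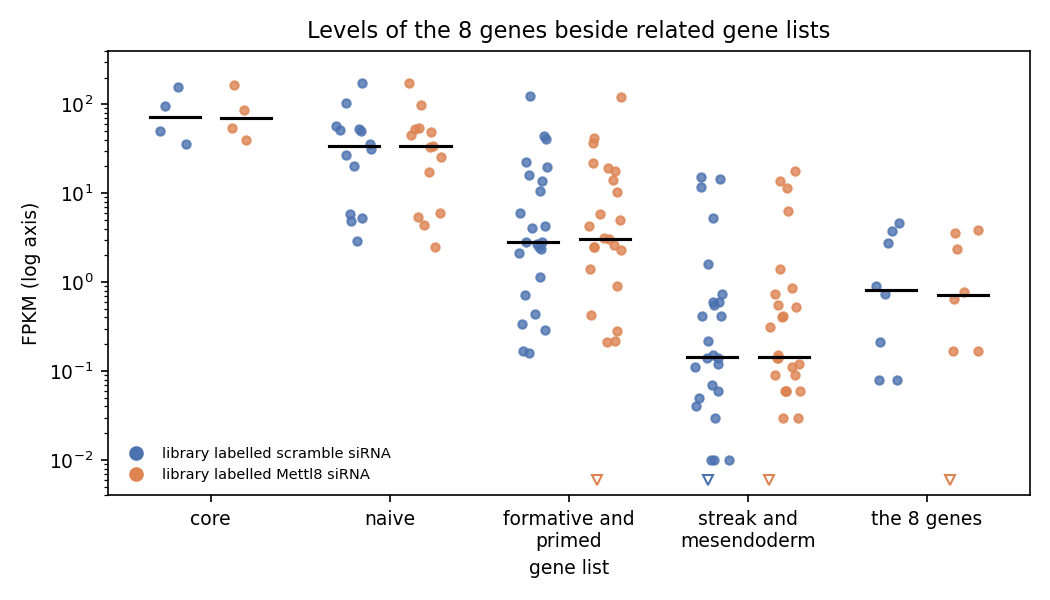
FPKM (log axis) of single genes (points) and their medians (bars) in the library labelled scramble siRNA (blue) and the library labelled Mettl8 siRNA (orange), for 4 lists of genes and the 8 genes; open triangles are genes listed at 0. The streak list has its median at 0.145 FPKM in both libraries, against 33.5 and 33.8 FPKM for the naive factors.

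Within their families the 8 genes differ in rank. Otx2 and Pou3f1 were the main transcripts of their classes: Otx1 was at most 0.04 FPKM, and no other class III POU gene of the 3 exceeded 0.08 FPKM in either library. Beside Zic2 and Zic5, their relatives Zic1 and Zic4 were at most 0.02 FPKM. In the T-box and FGF families a naive-state gene was above the genes described here. Tbx3, a T-box factor of naive cells, was 4.86 and 4.34 FPKM, 6.57 and 5.64 times Eomes. Fgf4, the autocrine growth factor of naive cells, was 35.7 and 34.1 FPKM, and 446 times Fgf5 in the library labelled scramble siRNA. Tbx3 and Fgf4 were the 2 of 14 listed relatives with a mean of at least 1 FPKM, and both were lower in the library labelled Mettl8 siRNA, with differences of -0.13 and -0.06 on the log2(FPKM + 1) scale, of which that of Fgf4 became 0.03 with the same FPKM sum.

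**Figure D3:**
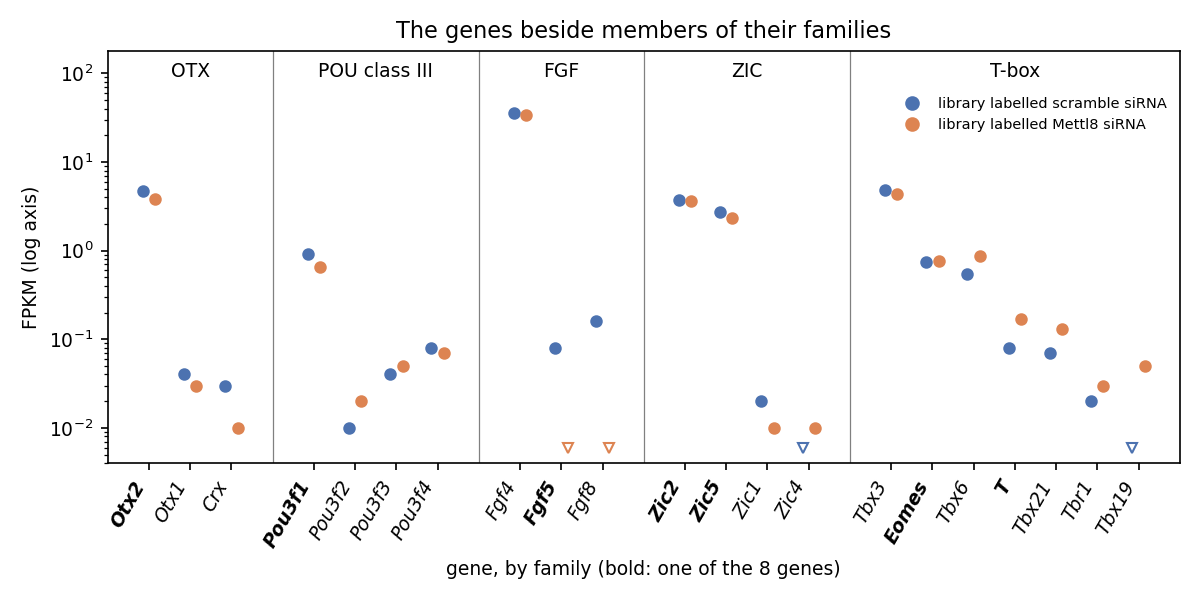
FPKM (log axis) of the OTX, class III POU, FGF, ZIC and T-box genes analysed here in the library labelled scramble siRNA (blue) and the library labelled Mettl8 siRNA (orange); bold names are among the 8 genes and open triangles are genes listed at 0. Otx2 and Pou3f1 are the highest of their groups, while Fgf4 and Tbx3 lie above Fgf5 and Eomes.

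The size of the differences was then set against the whole table. Of the 3 genes kept at a mean of at least 1 FPKM (Otx2, Zic2 and Zic5), 0 were 1.5-fold apart, measured as log2(FPKM + 1), where 2.11% of all kept genes and 0.100% of kept protein-coding genes did so. The other 5 genes were below the limit of 1 FPKM, and none of the 8 reached that fold on this scale, with differences from -0.22 to 0.12. The scale damps low genes, so this says little about those near zero. Fgf5 could not reach the fold by falling, as its drop from 0.08 to 0 FPKM gave -0.11, and the T read ratio of 2.25 gave 0.12. Over all kept genes, 141 were past this fold upwards and 139 downwards, or 189 and 102 at the same FPKM sum. On plain read ratios, 3 of the 7 genes with at least 10 reads (Otx2, Pou3f1 and Zic5) had a counting interval below 1. Of protein-coding genes with that many reads, 6.89% had one. Fgf5, with 6 reads, also had one. The share of genes with so few reads that have one was not counted, so nothing is read from the Fgf5 interval at any scaling. Of the 5 genes with 100 to 1000 reads over both libraries, 3 had an interval below 1, and 6.67% of protein-coding genes in that range of reads did. These calls depend on the scaling between libraries. The largest gene, Gm23935, held 33.3% of the FPKM sum under the scramble siRNA label and 32.1% under the Mettl8 siRNA label. At the same FPKM sum the upper bounds of Otx2, Pou3f1 and Zic5 became 1.02, 1.05 and 1.05, so that 0 of the 5 genes had an interval below 1, against 2.25% of protein-coding genes in the range, and only Fgf5 kept one (0 to 0.927). At the same sum without the largest gene, Otx2 had an upper bound of 0.998, and Pou3f1 and Zic5 again held 1. With the median log2 ratio set to 0, the upper bounds of Otx2, Pou3f1 and Zic5 were 0.942, 0.971 and 0.974. There 3 of the 5 genes had an interval below 1, against 7.99% of protein-coding genes in the range. With 1 library per label, a counting interval that leaves out 1 does not show a difference beyond the spread between cultures.

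**Figure D4:**
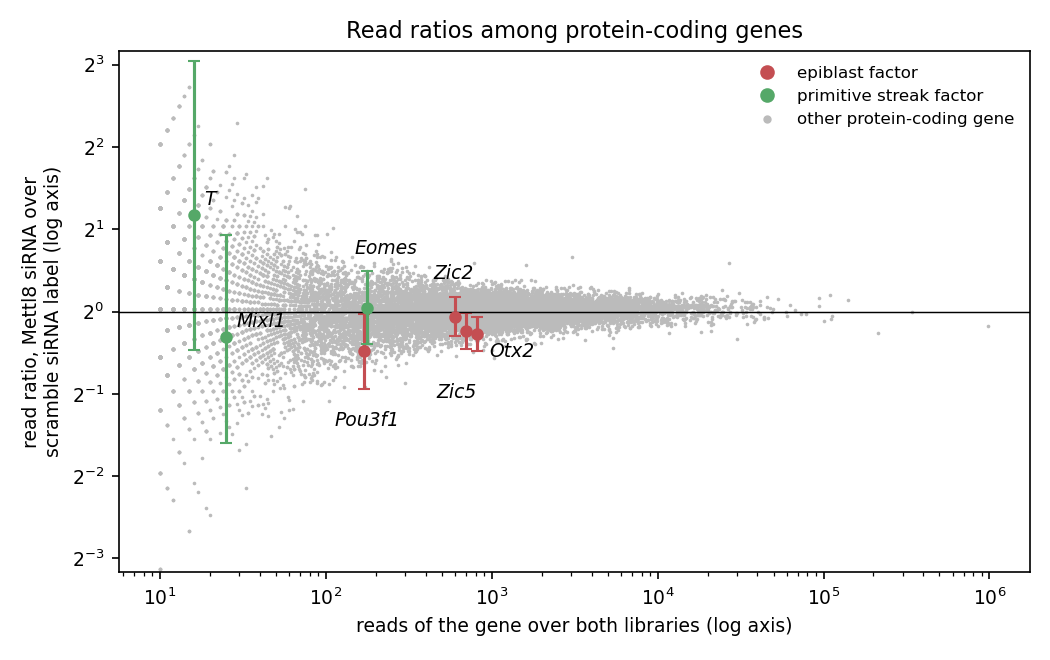
Read ratio of the library labelled Mettl8 siRNA over the library labelled scramble siRNA (log axis) against the reads of each protein-coding gene with at least 10 reads (log axis, grey), with epiblast factors in red and streak factors in green, each with its 95% counting interval. Genes with ratios beyond the axis, such as Mettl8 and Foxa2, are not seen, and genes with 0 reads in a library, such as Fgf5, have no point. Otx2 and Zic5 lie at ratios of 0.828 and 0.847, and the intervals of T and Mixl1 are wide.

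Ratios between the libraries moved with the GC content of transcripts. Protein-coding genes with 100 to 1000 reads were divided into 10 bins of equal size by the GC content of their longest GENCODE M21 transcript, and the median log2 read ratio went from 0.083 in bin 1, the lowest, to -0.083 in bin 10. Counting intervals below 1 were found for 2.55% of genes in bin 1 and 11.5% in bin 10. Pou3f1 (63.9% GC) and Zic2 (59.9%) are in bin 10. The upper bound of the Pou3f1 interval, -0.027 on the log2 scale, lies above the median of its bin, so that interval holds the median. Otx2 (46.8%, bin 3) and Zic5 (49.8%, bin 5) are from bins with medians of 0.015 and -0.009, which lie above the upper bounds of their intervals, -0.070 and -0.021. The part of GC content in the differences of single genes was not tested.

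**Figure D5:**
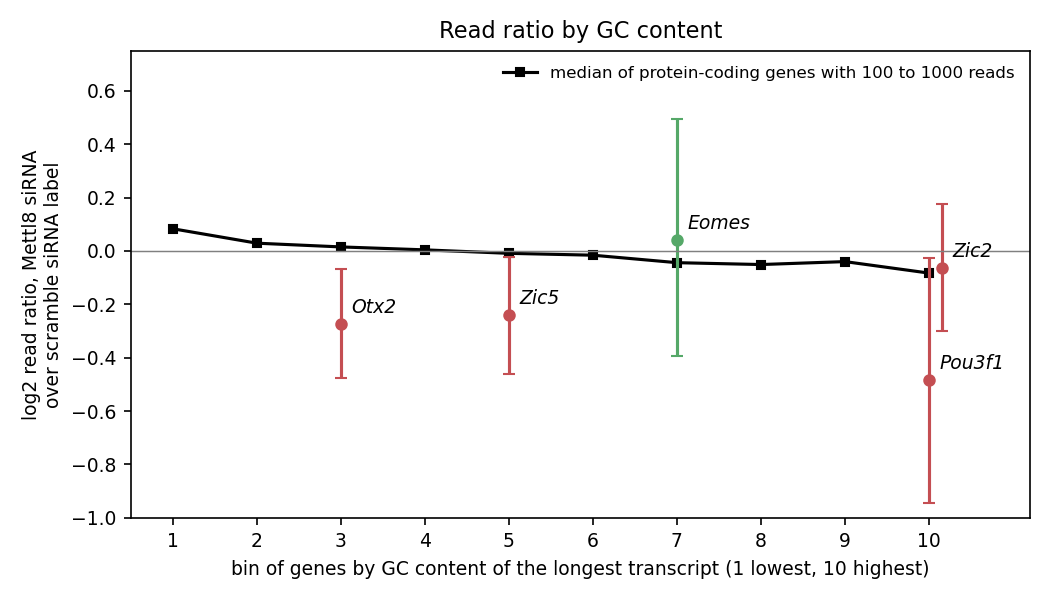
Median log2 read ratio, library labelled Mettl8 siRNA over library labelled scramble siRNA, for 10 bins of protein-coding genes by transcript GC content (black squares), with the 5 genes that had 100 to 1000 reads and their 95% counting intervals (red for epiblast, green for streak factors). The medians go from 0.083 to -0.083; Otx2 and Zic5 lie below the line by more than their intervals.

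Markers of other cell types were low. All 7 fibroblast markers, which could reveal feeder cells, lay at or below 0.66 FPKM, with summed levels of 1.21 FPKM (scramble siRNA label) and 1.08 FPKM (Mettl8 siRNA label); none of them was at 0 in both, and Col3a1 was at 0 under the scramble siRNA label. The 7 primitive endoderm markers summed to 1.03 and 1.44 FPKM and the 7 mesoderm markers to 1.53 and 1.71 FPKM, with none at a mean of 1 FPKM; Msgn1 and Foxf1 were at 0 in a library each. Of the 7 trophectoderm markers, which include Eomes, only Tfap2c had a mean of at least 1 FPKM (11.99 and 10.74 FPKM), a gene that stem cells also transcribe, and Cdx2 was at most 0.06 FPKM. Of the 7 neural markers, Pax6 (1.06 and 1.27 FPKM) and Nes (1.06 and 1.21 FPKM) did, while Sox1 was at most 0.19 FPKM. The part of such cells in the levels of the 8 genes was not tested.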

How the data were processed

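The deposited table gives FPKM per gene, rounded to 2 decimals by the authors, for 50508 genes with a gene length. The mm10 build, the aligner STAR (2.4.0i) and the counter featureCounts (1.5.0-p1) are named per the submitters' processing notes. For the annotation, the strand setting and multiply mapped reads, what was done is not given in the sources used here. The design text mentions triplicates, yet the table has 1 column per group, and whether a column pools cultures is not stated.

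Reads were rebuilt as FPKM times length times the denominator. Among genes under 400 bases with fewer than 30 reads, all 3120 and 3561 values were whole, with 0.005 reads allowed beside the rounding. For the longest of the 8 genes the rounding of FPKM leaves up to 0.696 reads of uncertainty. Genes of the table held 22213608 and 21419298 reads. Differences, on log2(FPKM + 1), subtract the library labelled scramble siRNA from the other; limits were a mean of 1 FPKM and a 1.5-fold difference. Gene type, position and GC content came from GENCODE M21 (GRCm38, the assembly of mm10), which held 94.3% of symbols. Steps were tested on simulated data (Python 3.11.15, scipy 1.17.1).

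No test across libraries was possible, and likeness of pattern between genes cannot be measured over 2 libraries. The 8 genes, the lists and the rules were chosen with earlier results of these data known. Named companions are the up to 6 most abundant kept genes of a list and the up to 2 largest differences each way, of which a part is given, together with kept relatives, genes overlapping a member and some low genes given as upper limits, the last chosen after their values were seen. Alternatives were another pseudocount, 2 other scalings, other limits, a sum without the largest gene and, added after seeing the data, protein-coding genes only, counting intervals, their rescaling and GC bins. An item of the gene lists is not reported here.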

Additional observations from a re-analysis of the deposited data

How the results depend on the processing

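Alternative values for the differences of the 8 genes were set against the counting interval of the ratio, converted to the log2(FPKM + 1) scale. Of 39 such values, 33 lay inside that converted interval. The 6 outside it came from Pou3f1, Fgf5, T and Mixl1 with a pseudocount of 0.1 or with plain read ratios. Those scales damp low genes less than the converted interval does, and a plain ratio always lies inside its own unconverted interval. The sign changed for Zic2, from -0.05 to 0.02 with each library rescaled to the same FPKM sum and to 0.02 with the median of its GC bin set to 0, and for none of the other 7 genes under any alternative run. Under that rescaling the median over all kept genes was 0.089, against 0.013 as deposited. All 8 levels rescaled to the same sum without the largest gene stayed inside their intervals. The factor of 1.05 is small beside these intervals, so this says little. Counts of genes past 1.5-fold, 141 higher and 139 lower, were 189 and 102 at the same FPKM sum, 391 and 312 without a limit on low values, 262 and 246 at a pseudocount of 0.1, 17 and 31 at a mean of at least 5 FPKM, 47 and 38 at 2-fold, 4 and 6 among protein-coding genes, and 1785 and 1241 when counted by the counting interval. Of the list medians, that of the formative companions became -0.029 at a mean of at least 5 FPKM (from 0.036; 3 higher, 6 lower), and that of the streak companions 0.038 with the same FPKM sum, 0.013 without a limit and 0.068 at a mean of at least 5 FPKM (from -0.048); that of the relatives became 0.014 without a limit on low values (from -0.099), that of the naive factors 0.019 with the same FPKM sum (from -0.072) and that of the core factors 0.184 with it (from 0.092). The cause was not tested. T, Mixl1 and Fgf5 are limited by depth, at 5 to 14 reads in the library labelled scramble siRNA. No paired analysis was possible because each group has 1 library.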

Other observations

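Of the 21 low companion genes of the streak, 11 were higher in the library labelled Mettl8 siRNA, 7 lower and 3 equal. For 1 of them, Foxa2, the counting interval leaves out 1. Neither the directions nor the share with such an interval was counted over all genes with as few reads, so nothing is read from these counts. The genes below were named after their values were seen. Tbx6, a T-box gene of paraxial mesoderm, was 0.55 FPKM (scramble siRNA label) and 0.86 FPKM (Mettl8 siRNA label) (28 and 43 reads, ratio 1.57, counting interval 0.954 to 2.63). Cdx1, a WNT-responsive homeobox gene, was 0.22 and 0.41 FPKM (11 and 20 reads, ratio 1.86, 0.850 to 4.30). Axin2, a WNT feedback gene, was 0.73 FPKM in both. Snai1, which drives the epithelial to mesenchymal transition in the streak, was 0.59 and 0.42 FPKM (27 and 19 reads, ratio 0.720, 0.378 to 1.34). Chrd, which encodes the BMP antagonist Chordin, was 0.42 and 0.31 FPKM (70 and 50 reads, ratio 0.731, 0.498 to 1.07), and Mesp2 0.60 and 0.52 FPKM (33 and 28 reads, ratio 0.868, 0.505 to 1.48). Foxa2, an endoderm and node gene, was 0.01 and 0.14 FPKM from 1 and 9 reads, a ratio of 9.21 with a counting interval of 1.28 to 404.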
